A study of Caenorhabditis elegans with 4 samples.

Results

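The combined peak list of GEI-11 held 429 peaks on chromosome V, out of 2811 on the 6 chromosomes of Caenorhabditis elegans. They were taken as all rows of that list whose chromosome was V, so neither strength nor width played a part in the choice. The worms were young adult hermaphrodites of strain OP179, grown at 20 °C on E. coli HB101, and carried the allele unc-119(ed3) of chromosome III together with the transgene wgIs179. This transgene, brought in by bombardment, holds gei-11 fused to TY1, EGFP and 3xFLAG tags next to unc-119(+) as the rescue marker. Every ChIP and input sample came from this strain, which the labels describe as showing the fusion in the pattern of the gene itself. Chromatin was fixed with 2% formaldehyde and collected with anti-GFP antibodies from 2 ChIP samples, and 2 input samples were kept from the chromatin before that step. The labels do not say whether the sample numbers stand for separate cultures. No peak list of the input samples and no untagged control was used here, so the description adds no background sample of its own. PeakSeq, the caller named for the peaks, scores ChIP reads against a control.

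GEI-11 goes by the name SNPC-4 as well and stands for the biggest protein of SNAPc, the complex that activates small nuclear RNA genes. In animals that complex sits on the promoters of small nuclear RNA genes and recruits the polymerase that transcribes them. In C. elegans the protein is also known for its place at the piRNA gene clusters of chromosome IV, which makes chromosome V a view of its sites away from those clusters. Chromosome V also carries the tandem array of 5S ribosomal RNA and SL1 spliced leader RNA genes, of which the SL1 genes have SNAPc-type promoters. Worm autosomes have a gene-rich centre with little recombination and 2 arms with more repeats and more recombination. No genome sequence or annotation of the build of the files was used, so peaks are given by position on WormBase WS220 and not by gene, and no base sequence is printed.

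Chromosome V held fewer peaks for its size than every chromosome but I. It made up 20.9% of the summed extent of the chromosomes and held 15.3% of the combined peaks. The extent is the distance from position 1 to the last peak of any list, 20.9 Mb for V. Density was 20.5 peaks per Mb (exact Poisson 95% interval 18.7 to 22.6), against 25 (22.6 to 27.7) on II, 25.5 (22.9 to 28.3) on III and 23.7 (21.5 to 26.1) on the X, where the interval meets that of V. It was lower on I, 9.36 (7.88 to 11), and highest on IV, 62.4 (58.8 to 66.2). All intervals given are for counting error alone and take each peak as independent, which neighbouring peaks are not. Peak strength is −log10 of the q-value that the authors deposited for each peak. Its median on V was 3.23 (exact 95% interval 3.04 to 3.30), with values from 2.02 to 141, and 193 of the 429 peaks, 45.0%, were under 3. Of the V peaks 11 were among the 100 strongest of the whole list, 2.56% (exact Clopper-Pearson 95% interval 1.29 to 4.54), where the same share over all peaks was 3.56%. The differences between chromosomes were not tested, because peaks of 1 list are not replicates.

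The peaks of V lay mostly in its centre. The middle 50% of the extent, from 5.22 to 15.7 Mb, held 268 peaks, 62.5% (57.7 to 67.1), while 40.1% of all combined peaks lay in the middle 50% of their chromosomes. The left 25% held 83 peaks and the right 25% held 78. Density was 25.7 peaks per Mb (22.7 to 28.9) in the middle and 15.4 per Mb (13.1 to 18.0) over both outer parts, so these intervals do not overlap. The centre was also the fuller part in each replicate list, with 29 of 38 V peaks in replicate 1 and 207 of 324 in replicate 2. How the combined list was made is not given in the sources used here, so the 3 lists are not taken as independent of each other. On III, the chromosome most like V in this, the middle 50% held 59.5% (54.2 to 64.7). On II it held 48.4% (43.3 to 53.6) on I 52.5% (43.9 to 60.9), on the X 35.2% (30.6 to 40.0) and on IV 22.5% (20.0 to 25.1).

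Cut into 10 equal parts, chromosome V filled and emptied along its length more than once. The sixth part, 10.4 to 12.5 Mb, was the densest with 68 peaks, 32.6 per Mb (25.3 to 41.3), followed by the fifth with 56. The second part, 2.09 to 4.18 Mb, was the emptiest with 22 peaks, 10.5 per Mb (6.60 to 16). The ninth and the last held 30 each. The first held 46, more than any other part outside the span from 8.35 to 14.6 Mb. In the 41 full bins of 0.5 Mb the count ran from 1 to 22, and its median was 10. The fullest, from 14.0 to 14.5 Mb, held 22 peaks, all of them found again in replicate 2 and 11 of them among the 100 strongest of V. The bins from 10.5 to 11 and from 11 to 11.5 Mb held 19 each, and the fullest window of 1 Mb, from 10.65 to 11.65 Mb, held 42. The emptiest full bin was that from 18.0 to 18.5 Mb, with a single peak. The variance of the bin counts was 2.50 times their mean on V, against 1.11 on I, 3.81 on II, 2.71 on III, 50.8 on IV and 3.51 on the X.

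**Figure D1:**
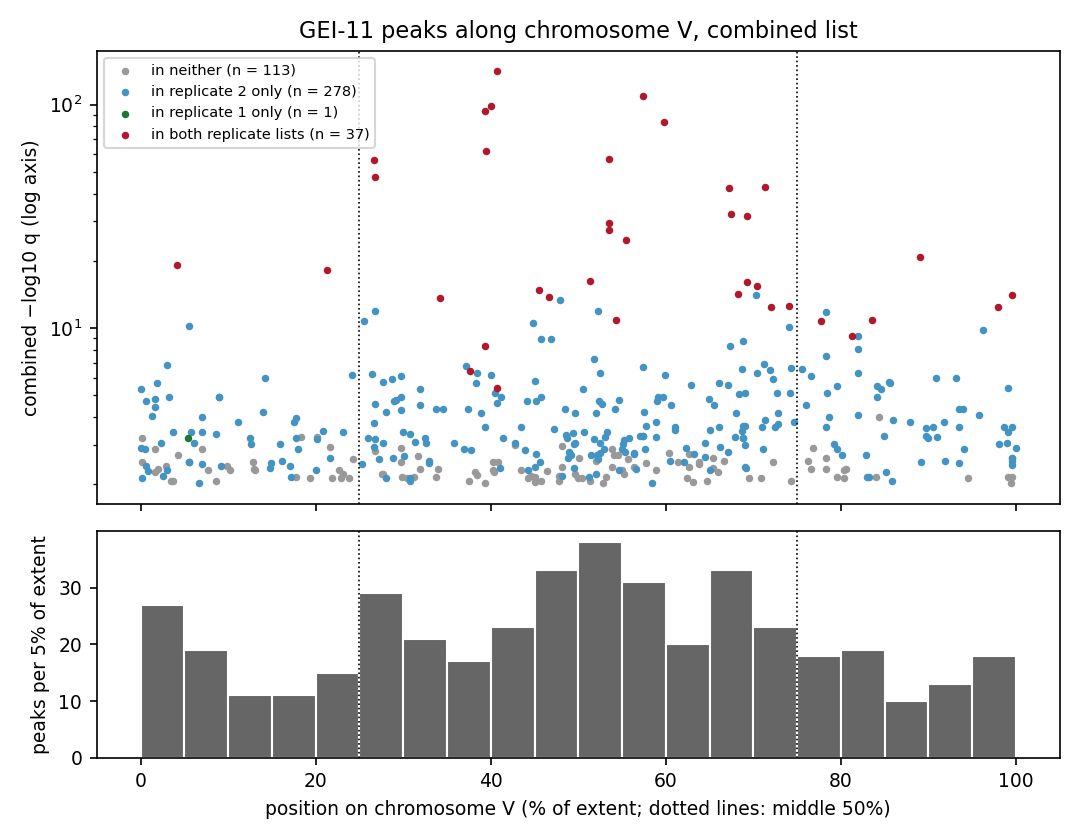
Upper panel: combined −log10 q of each of the 429 chromosome V peaks (log axis) against its position in percent of the extent, coloured by the replicate lists that held it. Lower panel: peaks in each 5% of the extent. The middle 50%, between the dotted lines, held 268 peaks and 17 of the 20 strongest.

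Both tips of chromosome V, taken as its first and last 0.5 Mb, were densely marked, with peaks about as strong as the rest at the median. This stretch length was chosen after the counts were seen, and the extent ends at a peak by its definition. The right tip was narrow. The emptiest window of 1 Mb, from 19.65 to 20.65 Mb with 6 peaks, ran into it. The last of the 10 equal parts, which holds this tip, had 14.4 peaks per Mb (9.70 to 20.5). The first 0.5 Mb held 17 peaks and the last 0.5 Mb of the extent 16, or 33.0 per Mb over both (22.7 to 46.3), against 19.9 per Mb (18.0 to 22.0) between them. The first 0.5 Mb held 4 to 8 peaks on the other 5 chromosomes. The last 0.5 Mb held 2 on I, 9 on the X, 11 on III, 24 on II and 40 on IV. Median −log10 q was 2.91 (2.55 to 3.60) at the tips of V and 3.23 (3.04 to 3.37) between them, and the first interval holds the second median. Of the 33 tip peaks 17 were under 3, 51.5% (33.5 to 69.2), against 44.4% (39.5 to 49.5) between the tips. In the left tip no peak exceeded 5.66 and none was in replicate 1. The right tip held 2 peaks that were in both replicates, at 20798886 to 20799282 and 20451063 to 20451419, with combined values of 14.0 and 12.4. Replicate 2 held 24 of the 33, 72.7% (54.5 to 86.7), close to the 73.5% (68.8 to 77.8) between the tips. Repeats at chromosome ends could not be looked at without a genome, so their part in these counts was not tested.

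The 3 longest stretches without a combined peak were in the outer parts of V. The first ran from 17951615 to 18346084, 394 kb on the right arm, and the next from 20084171 to 20451062, 367 kb, also on the right. The third, 292 kb, ran from 2308672 to 2600627 on the left. None of these 3 stretches held a peak of replicate 1 or replicate 2 either. Of the 10 longest gaps 5 were in the right 25%, 4 in the middle and 1 on the left. On the right the longest gap was followed by a lone peak and then by a further 231 kb with none. The longest of the centre, 285 kb from 8651631 to 8936175, had no peak in any list. It began 151 kb to the right of the strongest peak of the chromosome, with 4 combined peaks between. Gaps over 100 kb numbered 65 on V and made up 51.2% of its extent, against 81.1% on I, 44.2% on II, 41.9% on III, 32.1% on IV and 43.1% on the X.

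Most of the strongest sites of V lay in its centre. Of the 20 strongest 17 lay in the middle 50%, 2 on the left and 1 on the right, which made the middle share 85.0% (62.1 to 96.8). The interval of that share includes the 62.5% of all V peaks. Of the 17 peaks with −log10 q over 20, 16 lay in the middle, 94.1% (71.3 to 99.9). Of the 42 over 10, 33 did, 78.6% (63.2 to 89.7). The share was 69.0% (59.0 to 77.9) of the 100 strongest and 64.0% (57.2 to 70.4) of the stronger 50%, near the 62.5% of all V peaks. The medians told less of this: 3.23 (3.04 to 3.50) in the middle and 3.05 (2.86 to 3.30) in the outer parts, a difference of 0.182 with an interval from −0.129 to 0.505. That interval included 0. Of the outer parts, the left had a median of 2.87 (2.52 to 3.17) and the right 3.58 (2.90 to 4.01), and these intervals overlap. The right median was above that of the middle, but its interval holds the middle median of 3.23. Replicate 1, the shorter list, mirrored the top of the range, with 10.8% (7.37 to 15.2) of the middle peaks of the combined list found in it and 5.59% (2.59 to 10.3) of the outer ones.

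The strongest group of sites lay between 8228656 and 8500768, where 4 of the 6 strongest V peaks stood within 272 kb. The strongest peak of the chromosome spanned 8500134 to 8500768, was 635 bp wide and ranked 9 in the whole list. Its combined −log10 q was 141, with 38.9 in replicate 1 and 130 in replicate 2, and it was the first V peak of each. The third of V, at 8348472 to 8349386, had a combined value of 98.3, with 21.3 in replicate 1 and 84.4 in replicate 2. These 2 strong sites were 152 kb apart from outer edge to outer edge. The fourth, at 8228656 to 8229225, had 94.1, 27.5 and 76.1 in the same order. The sixth, at 8247387 to 8248175, had 61.8, 11.6 and 48.9. Replicate 2 was higher than replicate 1 at all 4 sites, by 2.77 to 4.20 times on this scale. The stretch held 13 combined peaks in all.

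A second group, in the middle of the chromosome, was the tightest cluster of strong peaks. A run of 3 neighbouring peaks between 11174650 and 11177124 filled 2.48 kb and ranked 7, 14 and 15 on V. The rightmost, 11176634 to 11177124, was the strongest, with a combined value of 57.1, 15.7 in replicate 1 and 41.4 in replicate 2. The middle one, 11175484 to 11176158, had 29.5, 8.88 and 20.5. The leftmost, 11174650 to 11175086, had 27.4, 5.45 and 21.3. The gaps between them were 397 and 475 bp, and each replicate list held the same 3 separate peaks. This was the only group of V peaks within 2 kb of each other in which 3 members were in both replicates.

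Further along, the second strongest site of V spanned 11979494 to 11980525. It was 1032 bp wide, and its −log10 q was 109 combined, 27.8 in replicate 1 and 91.6 in replicate 2. A weak peak stood on each side of it, at 11978291 to 11978661 with 3.29 and at 11982315 to 11982636 with 6.68, both in replicate 2 and neither in replicate 1. The fifth, at 12490983 to 12491677, had 83.5, 19.9 and 69.5 in the same order. The sixteenth, at 11585109 to 11585581, had 24.9, 6.21 and 17.6. The twentieth, at 10715699 to 10716190, had 16.2, 4.16 and 11.6. With the tight cluster, 7 of the 20 strongest peaks thus lay between 10.7 and 12.5 Mb, in the part of V that was also the densest.

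On either side of this core stood 2 smaller sets. Near 5.6 Mb the eighth peak, 5575918 to 5576398, had a combined value of 56.3, with 8.87 in replicate 1 and 48.6 in replicate 2. The ninth, 5586928 to 5587583, had 47.4, 5.18 and 41.3, which made its ratio of 7.97 the widest between the replicates on V. Both lay within 11.7 kb. Between 14028440 and 14876635, 848 kb, stood the tenth to the thirteenth peaks. The tenth, 14876244 to 14876635, had a combined value of 42.7, with 10.2 in replicate 1 and 33.4 in replicate 2. The eleventh, 14028440 to 14028849, had 42.3, 8.22 and 34.6. The twelfth, 14092288 to 14092857, had 32.5, 4.93 and 27.1, and the thirteenth, 14468532 to 14468947, had 31.7, 7.53 and 23.3. These 4 were 392 to 570 bp wide, where the median of the 20 strongest was 531 bp.

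Among the 20 strongest 3 sites lay in the outer parts, and their order differed between the replicates. The seventeenth of V, at 18577428 to 18578606, was 1179 bp wide and had a combined value of 20.8, with 16.9 in replicate 2 and 2.49 in replicate 1, where it ranked 30 among 38 V peaks. It was the next peak after 231 kb with none. The eighteenth, at 858836 to 859232, had 19.2, 16 and 2.71, and ranked 27 in replicate 1. The nineteenth, at 4447480 to 4447938, went the other way: it had 18.2, with 9.73 in replicate 2 and 7.38 in replicate 1, and ranked 27 in replicate 2 but 13 in replicate 1. Of the 20 strongest combined peaks 18 were among the 20 strongest V peaks of replicate 1, and 18 among those of replicate 2.

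All V peaks of replicate 1 were in the combined list, and all but 1 were in replicate 2. Replicate 1 held 38 peaks on V and replicate 2 held 324, which is 8.53 times as many, against 7.11 times over the whole genome. Of the 38, 37 overlapped a replicate 2 peak by at least 1 bp, 97.4% (86.2 to 99.9). The exception spanned 1131118 to 1131384 in replicate 1 with −log10 q of 2.16, and the combined peak there, 1131164 to 1131479, had 3.23. Of the 324 replicate 2 peaks 318 were in the combined list, and the 6 that were not had values from 2.01 to 2.11, at the weak end of the list. Read depth is unknown for all lists, so a peak missing from replicate 1 was not shown to be absent there.

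**Figure D2:**
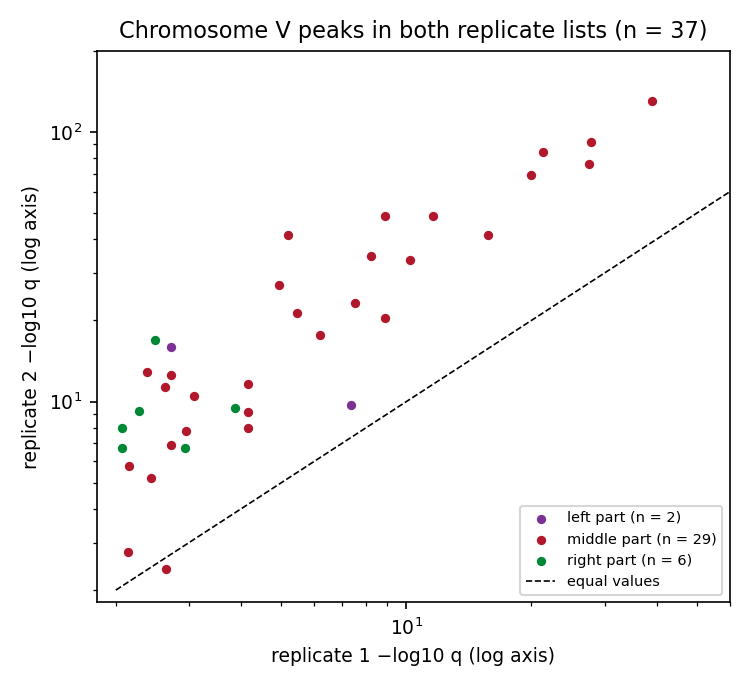
Replicate 2 −log10 q against replicate 1 −log10 q (both log axes) for the 37 chromosome V peaks held by both lists, coloured by the part of the chromosome. Where a combined peak held 2 peaks of a list, the stronger is plotted. The dashed line marks equal values, and 36 of the 37 points lie above it.

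In the 37 peaks held by both lists, −log10 q was higher in replicate 2 in 36. The median was 4.16 for replicate 1 and 12.9 for replicate 2. It was 18.2 for the combined list, which gave a higher value than replicate 2 in all 37. These counts give each combined peak the stronger of its peaks in a list, and by that rule the single peak higher in replicate 1 was at 7853974 to 7854965, with 2.64 against 2.40. At 14686558 to 14689134 the replicate 1 peak, with 2.43 and 538 bp, did not overlap the stronger replicate 2 peak, with 5.22. The replicate 2 peak that it did overlap was lower and narrower, with 2.35 and 304 bp. As a description of peaks that share 2 libraries, Spearman's rho between the replicates was 0.844 and Pearson's r 0.961 (n = 37 peaks). With the same pairing, replicate 1 peaks were narrower than their counterparts in 35 of 37, with medians of 341 and 422 bp. Of the 37, 36 lay wholly inside the combined peak. Their centres were close, 24 bp apart at the median, and over 100 bp apart in 4.

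Recovery of the combined V peaks fell with rank. Of the 429, 315 overlapped a replicate 2 peak, 73.4% (69.0 to 77.5), where the share over all combined peaks was 72.6%. In replicate 1 it was 38 of 429, 8.86% (6.34 to 12.0), against 10.5% over all. Both shares on V were near those of the whole list. Peaks in both lists numbered 37, those in replicate 2 alone 278, that in replicate 1 alone 1 and those in neither 113, or 26.3% (22.2 to 30.8) against 27.2% over all. A short replicate list cannot hold more than its own length, and the combined ranks may rest on the same reads. The first 148 V peaks were all in replicate 2 and the first 24 all in replicate 1. Replicate 2 held 99.0% of ranks 101 to 200, 73.0% (63.2 to 81.4) of the next 100 and 33.3% (25.3 to 42.2) of those from 301 down. Replicate 1 held 50.0% (31.3 to 68.7) of ranks 21 to 50 and 2 of the 50 peaks that followed.

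**Figure D3:**
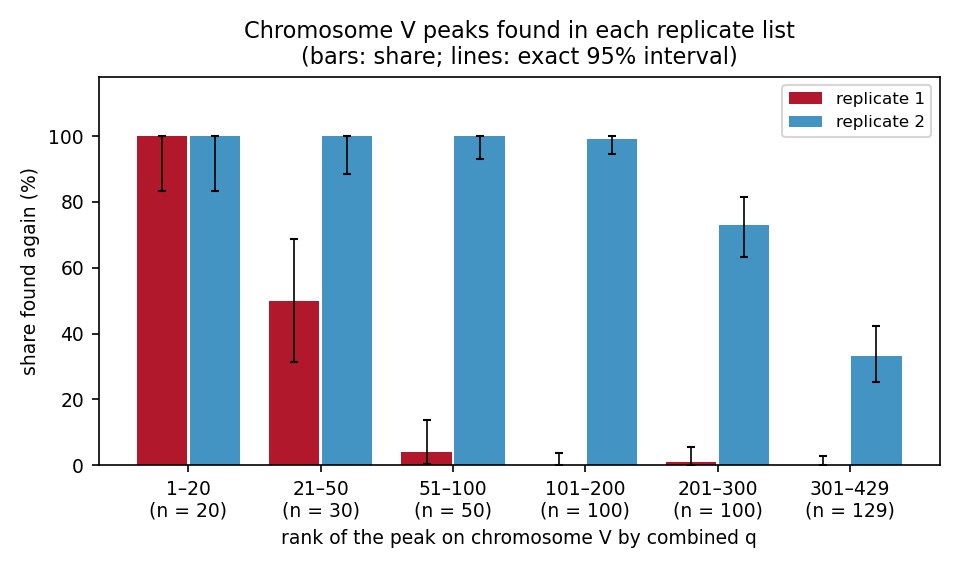
Share of chromosome V combined peaks that overlapped a peak of replicate 1 or replicate 2 by at least 1 bp, by rank on V. Bars are shares and lines exact Clopper-Pearson 95% intervals; replicate 2 stays at or near 100% to rank 200 and replicate 1 drops to 50.0% in ranks 21 to 50.

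The peaks on either side of these limits show the change. The strongest V peak missing from replicate 1 ranked 25 and spanned 14685574 to 14686284, with a combined value of 14.1 and 12.9 in replicate 2. The strongest found in neither list was 17598598 to 17599118, 521 bp wide, with a combined value of 3.98. Its rank on V was 149. Peaks found in neither list had a median −log10 q of 2.32 (2.27 to 2.38), those in replicate 2 alone 3.50 (3.30 to 3.65) and those in both 18.2 (14.0 to 31.7). By position, replicate 2 held 62.7% (51.3 to 73.0) of the left peaks, 75% (69.4 to 80.1) of the middle ones and 79.5% (68.8 to 87.8) of the right ones. Strength moved the same way, with medians of 2.87, 3.23 and 3.58. The part of strength in this order was not tested.

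Widths on V varied with strength. The median was 311 bp (304 to 320), with the central 50% of peaks between 261 and 410 bp, and the peaks covered 155 kb in all. Of the 429 peaks 54, or 12.6%, were over 500 bp wide. Median widths were 363 bp on I, 291 bp on II, 312 bp on III, 217 bp on IV and 311 bp on the X. Stronger peaks were wider: as a description across the 429 peaks, Spearman's rho of width and −log10 q was 0.585, and both come from the same peak calls. The 20 strongest had a median of 531 bp and ranged from 392 to 1179 bp, while ranks 301 to 429 had a median of 254 bp. The middle and the outer parts had medians of 316.5 and 303 bp, a difference of 13.5 bp with an interval from −11.3 to 36.1 bp.

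Width also went with recovery. Of the 23 V peaks up to 200 bp wide, 4 were in replicate 2, 17.4% (4.95 to 38.8). The share was 64.0% (56.0 to 71.4) from 200 to 300 bp, 84.3% (78.3 to 89.1) from 300 to 500 bp and 87.0% (75.1 to 94.6) above that. Median −log10 q rose over these classes from 2.15 to 2.63, 3.74 and 5.31, so the part of width apart from strength was not tested. The 3 narrowest peaks, 8521178 to 8521275, 14505741 to 14505861 and 4570982 to 4571106, were 98, 121 and 125 bp wide and were in neither list.

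**Figure D4:**
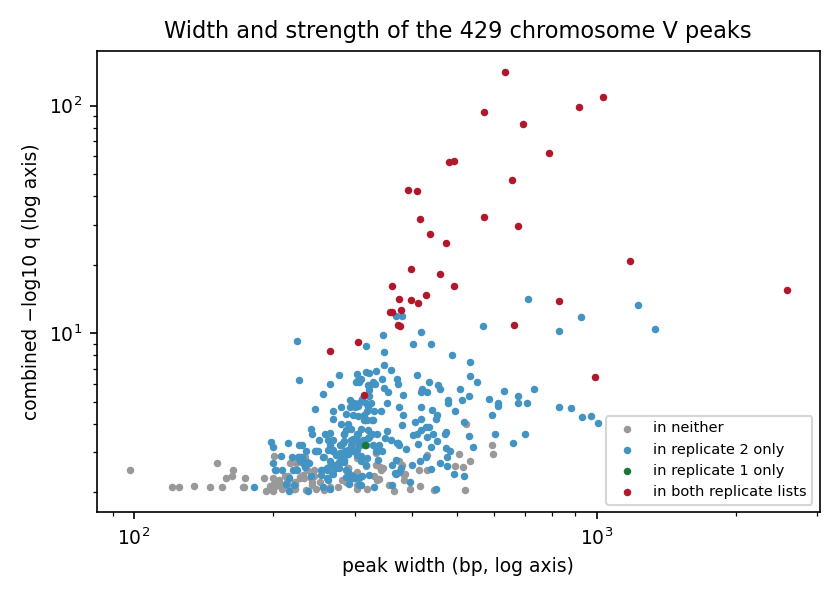
Combined −log10 q against width in bp (both log axes) for the 429 chromosome V peaks, coloured by the replicate lists that held them. Peaks in both lists fill the upper part and peaks in neither the lower part, and the widest peak, 2577 bp, has a value of only 15.5.

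The widest peak of V was also the widest of the combined list on any chromosome. It spanned 14686558 to 14689134, 2577 bp, with a combined −log10 q of 15.5, and its left edge was 273 bp from the strong peak at 14685574 to 14686284. Inside it replicate 2 had 2 peaks, at 14687886 to 14688189 with 2.35 and at 14688400 to 14689134 with 5.22. Replicate 1 had 1, at 14687691 to 14688228 with 2.43. The left of the broad peak, from 14686558 up to 14687691, had no peak in either list, and its combined value was above that of each peak inside it. Another broad peak, 10003329 to 10004557, likewise held 2 replicate 2 peaks, with 8.53 and 2.61, and none of replicate 1. The second widest peak of V, 9343270 to 9344606 with 1337 bp, was matched by a single replicate 2 peak of 1343 bp.

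Spacing on V was between that of I and those of the other chromosomes at the long end. The median gap between neighbouring peaks was 26.2 kb (20.7 to 34.9), against 20.0 kb (15.8 to 24.5) on II, 19.1 kb (14.7 to 24.0) on III and 24.5 kb (20.1 to 29.2) on the X, and these intervals overlap that of V. It was 63.7 kb (48.6 to 93.0) on I and 3.63 kb (3.26 to 4.18) on IV. The shortest gap was 273 bp on V and 205 bp over all chromosomes. Of the 428 gaps on V 30 were up to 1 kb, 43 up to 2 kb and 89, or 20.8%, up to 5 kb. The share up to 5 kb was 15.0% on I, 20.7% on II, 22.0% on III, 57.3% on IV and 19.4% on the X. Gaps up to 50 kb made up 65.9% on V, 41.4% on I, 75.1% on II, 76.0% on III, 91.6% on IV and 72.7% on the X.

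**Figure D5:**
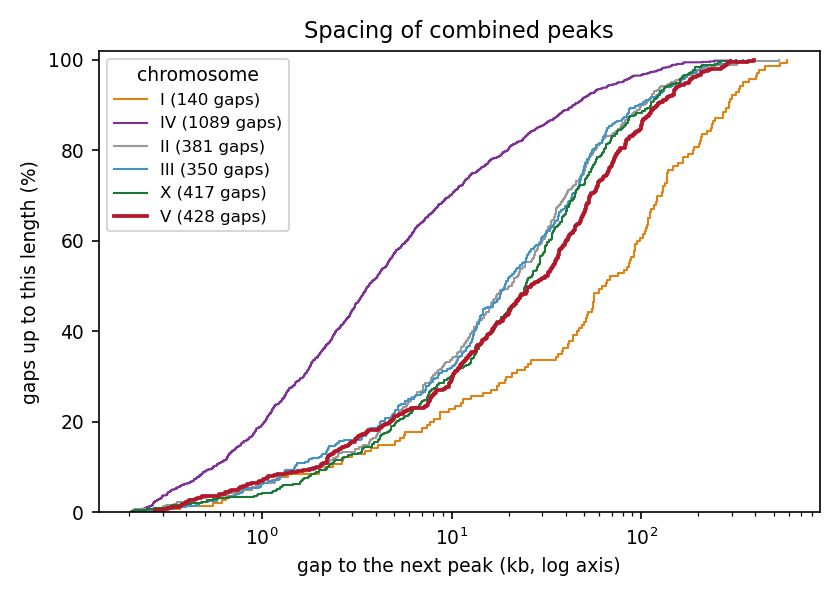
Share of gaps between neighbouring combined peaks up to a given length in kb (log axis) on the 6 chromosomes. The curves of II, III, V and X lie together at short gaps, 19.4% to 22.0% at 5 kb, and at 50 kb V, with 65.9%, lies below these and above I.

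Close neighbours on V came mostly as pairs. With peaks within 2 kb joined there were 36 groups, of which 30 had 2 peaks, 5 had 3 and 1 had 4, and they took in 79 peaks, 18.4% (14.9 to 22.4). Over all combined peaks the share was 32.2%. It was 54.0% on IV, 15.6% on I, 17.8% on II, 21.9% on III and 16.5% on the X. The strongest member was 1.74 times its second at the median on the −log10 q scale, and at least 3 times in 8 of the 36 groups. This ratio cannot be below 1 by its definition, and it was not compared with that of peaks further apart. The widest contrast was at the strongest site of V. A peak at 8499486 to 8499800, 333 bp to its left, had a combined value of 5.38, with 2.14 in replicate 1 and 2.77 in replicate 2. The fourth strongest had a like neighbour at 8230099 to 8230364, with 8.33, 2.15 and 5.77. These were among the weakest V peaks that replicate 1 held. Of the 20 strongest peaks 7 had a neighbour within 2 kb.

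With peaks within 2 kb joined, the group with the most members lay on the left arm. Its 4 peaks ran from 1151288 to 1156246, led by a peak of 830 bp at 1151288 to 1152117 with a combined value of 10.2, and the other 3 were at 2.51 to 2.52. Replicate 2 held 2 of the 4 and replicate 1 none. Which group is the largest hangs on the 2 kb limit. In the middle part 5 peaks from 6223213 to 6231061 counted as 2 groups because of a gap of 2.74 kb. Their combined values ran from 2.52 to 6.11, with 3 of the 5 in replicate 2 and none in replicate 1. On the right arm 2 pairs stood 4.74 kb apart, at 17121879 to 17123072 and 17127815 to 17129528, an example chosen after the values were seen. Their 4 peaks had combined values from 4.07 to 9.25, all were in replicate 2 and none in replicate 1, and the next V peaks were 156 kb away on the left and 178 kb away on the right. Which genes or repeats lie there was not looked up.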

How the data were processed

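The series holds 4 samples, 2 ChIP and 2 input. The build is WormBase WS220, per the file headers, and the peaks' source column names PeakSeq, a caller that scores ChIP reads against a control. What the authors deposited per peak is a q-value, all below 0.01. It measures neither height nor fold, and deeper sequencing lowers it just as stronger binding does. For the PeakSeq version, aligner, filters, threshold, depth and any pooling of reads: not given in the sources used here. The RefSeq gene table at hand is of assembly WBcel235 and was not used for positions.

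From the 3 lists, −log10 q, widths, gaps from the end of a peak to the start of the next, and overlaps of at least 1 bp were computed. A combined peak that overlapped 2 peaks of a list took the value of the stronger. A peak was placed by its centre in the left 25%, middle 50% or right 25% of the extent. Shares have exact Clopper-Pearson, densities exact Poisson, and medians order-statistic 95% intervals; an interval of a difference joins the 2 intervals by square-and-add. No test was run, because peaks of 1 list are not replicates of a condition. The functions were tested on simulated data. Named were the 20 strongest V peaks, the 3 widest and 3 narrowest, the strongest in neither list, replicate 1 peaks missing from replicate 2, the largest group within 2 kb, the fullest 0.5 Mb bin and the 3 longest gaps; further examples were chosen after their values were seen. The members, lists and settings were chosen with earlier results of these data known. Scripts ran under Python 3.11.15 with pandas 2.3.3, scipy 1.17.1, numpy 2.4.6 and, for figures, matplotlib 3.10.9.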

Additional observations from a re-analysis of the deposited data

How the results depend on the processing

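No paired analysis was possible because the input samples that share numbers with the ChIP samples had no values here. Leaving out a replicate means using the list of the other one. 

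The share in the middle 50% was 62.5% and stayed above an even spread under every setting run: 63.9 to 76.3% over the single lists, 41.3% for the middle of 3 equal parts and 67.7% without the first and last 0.5 Mb (this last setting was added after the data had been seen). The small differences between the middle and the outer parts were less steady. That in median −log10 q, 0.182 in the main setting, was −0.194 for the middle of 3 parts, 0.649 in the stronger 50% of V peaks, 0.000186 with peaks within 1 kb merged, 0.0272 without the first and last 0.5 Mb, and 0.360 to 2.69 over the single lists. The 2.69, from the list of replicate 1, had an interval from 0.0593 to 6.41, and the intervals of all other settings included 0. The difference in recovery in replicate 2 was −5.74 percentage points for the middle of 3 parts, against 4.19 in the main setting. It was 6.49 (1.40 to 14.5) in the stronger 50%, the only setting whose interval did not include 0. That in median width was −11 bp for the middle of 3 parts, against 13.5 bp. All 3 turned with that setting. Under it all of the eighth of the 10 equal parts, 14.6 to 16.7 Mb, counted as outer. In the main setting its stretch up to 15.7 Mb was in the middle. That part had the highest median −log10 q of the 10, 4.54 (3.61 to 6.29), and the largest median width, 360 bp (306 to 431). Its recovery in replicate 2, 78.0% (62.4 to 89.4), was below the 83.3% of the ninth and the last. The bin from 14.0 to 14.5 Mb also went from middle to outer. It held 22 peaks, all in replicate 2, with a median −log10 q of 4.62. The share of these stretches in the turn was not tested. With limits of 6 and 16 Mb the 3 differences kept their direction, at 0.176, 2.15 percentage points and 11.5 bp.

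Density and the median gap moved with list length. Median −log10 q, median width and the share with a neighbour within 2 kb did not keep to its order. That share was 18.4% in the combined list and in replicate 1, the shortest, and 14.2% in replicate 2. Over the single lists density was 1.82 to 15.5 per Mb, the median gap 36.3 to 272 kb, median −log10 q 2.96 to 4.16, median width 304 to 340.5 bp and the share with a neighbour within 2 kb 14.2 to 18.4%. With the stronger 50% of V peaks they were 10.3 per Mb, 56.1 kb, 4.92, 362 bp and 13.6%, and recovery was 17.8% in replicate 1 and 97.7% in replicate 2. The share of replicate 1 peaks found in replicate 2 was 97.4%, and with replicate 2 cut to as many peaks as replicate 1 held, 8.86% of V combined peaks were found in it. The share with a neighbour was 13.3% within 1 kb, 34.7% within 5 kb and 6.02% after merging within 1 kb. Overlap of 50% of the shorter peak left both recovery shares as they were. The unknown depth limits any statement on peaks missing from a list.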
